A study of Mus musculus with 2 samples.

Results

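The genes described here are 10 components of the NF-kB pathway, chosen by symbol from the 54838 genes of the deposited feature table. All 10 symbols were found. They are 4 genes for DNA-binding subunits (Nfkb1, Nfkb2, Rel and Relb) and 6 genes for inhibitors that the pathway itself is known to induce (Nfkbia, Nfkbie, Nfkbid, Nfkbiz, Tnfaip3 and Birc3). Single-cell RNA sequencing had been made of sorted live immune cells of the mouse intestine after 10 Gy of X-rays, in 1 library of Dpf2 knockout mice (KO) and 1 library of wild-type mice (WT). Dpf2 encodes a subunit of the BAF chromatin remodelling complex. Both libraries were irradiated, so no unirradiated level was measured. The labels name a GFP or Tdtomato signal in the sort. The labels and files name neither the reporter allele nor which part of Dpf2 was deleted and in which cells, and give no time after irradiation and no number, sex or age of mice.

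NF-kB subunits form dimers that inhibitory IkB proteins hold in the cytoplasm of resting cells. Signals from Toll-like receptors, cytokine receptors, antigen receptors or DNA damage lead to degradation of IkB, and the freed dimers enter the nucleus. Among the genes they induce are their own inhibitors, which end the response, so transcripts of the inhibitors are widely read as a trace of recent pathway activity. In the intestine the pathway drives inflammatory cytokines of myeloid cells, survival of lymphocytes and maturation of dendritic cells.

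The start regions of the members were searched for the sequence that NF-kB dimers are known to bind, because the inhibitors are known as targets of the subunits. RefSeq windows of 300 bases on GRCm38.p6, 250 before and 50 after an annotated start, were matched for 7 of the 10 members (12 windows). The kappaB consensus was searched on both strands, and overlapping matches were merged into 1 run of capitals. It was found in 8 of the 12 windows, which belong to 6 of the 7 genes, against 8.46% of all 32851 windows and 9.55% of the 27025 genes that have one. A gene with several starts has several windows. The windows 2 and 3 of Nfkb2 overlap and share 1 match, which was counted in both, and the Nfkbid window shown is the only one of its 3 with a match. The windows below belong to the inhibitor genes Nfkbia and Nfkbid and the subunit genes Rel and Nfkb2, with Birc3 as the gene whose window holds no match. Capitals mark kappaB matches.
Nfkbia, chr12:55492598-55492897, minus strand: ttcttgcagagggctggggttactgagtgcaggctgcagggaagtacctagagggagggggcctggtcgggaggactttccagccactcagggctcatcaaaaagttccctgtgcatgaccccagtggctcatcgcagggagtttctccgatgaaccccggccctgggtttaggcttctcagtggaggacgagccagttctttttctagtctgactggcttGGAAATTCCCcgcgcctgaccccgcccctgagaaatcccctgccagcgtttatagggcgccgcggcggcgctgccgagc
Nfkbid, chr7:30422156-30422455, plus strand: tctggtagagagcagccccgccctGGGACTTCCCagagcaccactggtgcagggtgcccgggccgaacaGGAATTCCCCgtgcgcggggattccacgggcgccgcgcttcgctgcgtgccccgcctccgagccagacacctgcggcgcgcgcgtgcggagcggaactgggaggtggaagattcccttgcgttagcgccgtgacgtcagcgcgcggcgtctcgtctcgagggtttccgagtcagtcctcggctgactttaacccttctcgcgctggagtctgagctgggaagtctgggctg
Rel, chr11:23770920-23771219, minus strand: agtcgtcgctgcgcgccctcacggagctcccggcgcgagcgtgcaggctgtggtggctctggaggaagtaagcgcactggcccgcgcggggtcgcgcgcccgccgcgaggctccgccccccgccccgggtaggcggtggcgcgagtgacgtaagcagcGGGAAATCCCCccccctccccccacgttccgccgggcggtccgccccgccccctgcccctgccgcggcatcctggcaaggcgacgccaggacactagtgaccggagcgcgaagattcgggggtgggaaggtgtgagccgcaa
Nfkb2, chr19:46305445-46305744, plus strand: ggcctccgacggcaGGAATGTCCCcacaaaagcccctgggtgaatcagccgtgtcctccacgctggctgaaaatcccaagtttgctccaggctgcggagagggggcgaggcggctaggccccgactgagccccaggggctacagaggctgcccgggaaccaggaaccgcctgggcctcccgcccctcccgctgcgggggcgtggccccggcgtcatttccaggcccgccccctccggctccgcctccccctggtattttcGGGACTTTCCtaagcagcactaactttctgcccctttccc
Birc3, chr9:7873121-7873420, minus strand: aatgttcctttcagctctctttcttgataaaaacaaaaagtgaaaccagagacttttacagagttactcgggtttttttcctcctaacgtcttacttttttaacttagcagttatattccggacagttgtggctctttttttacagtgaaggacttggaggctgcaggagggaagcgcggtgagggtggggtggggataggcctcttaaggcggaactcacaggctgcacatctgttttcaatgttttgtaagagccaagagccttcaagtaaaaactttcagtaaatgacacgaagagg
The Nfkbia window holds 1 match, 29 bases before the start. The Nfkbid window holds matches 226 and 181 bases before its start, and the Rel window holds 1 run that begins 92 bases before the start. A match describes letters in a window and does not show binding. Nfkb1, Relb and Nfkbiz lie on chromosomes 3, 7 and 16.

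After filters on genes, UMIs and mitochondrial share, and removal of called doublets, 8265 KO cells and 10259 WT cells were kept, with medians of 4112 UMIs per KO cell and 4543 per WT cell. The libraries shared 24 barcodes. Clusters were named from marker genes, and 9 classes held at least 100 cells in each library. The lymphoid classes were T cells (1665 KO and 3764 WT cells), B cells (2450 KO and 1096 WT), plasma cells (611 KO and 1218 WT), NK cells (252 KO and 317 WT), ILC2 (116 KO and 121 WT) and ILC3 (253 KO and 123 WT). The myeloid classes were monocytes or macrophages (1097 KO and 1526 WT), conventional dendritic cells (657 KO and 661 WT) and neutrophils (515 KO and 260 WT). The sorted suspension also held 72 KO and 375 WT stromal cells, which are not immune cells. Dpf2 had a lower level in KO than in WT cells in all 9 classes, at 17.6 CPM in KO T cells (136 UMIs) and 39.9 in WT T cells (714 UMIs), a fold of 0.44 (0.364 to 0.529). Its fold ran up to 0.82 in plasma cells, and its interval included 1 in plasma cells, ILC2 and neutrophils. UMIs from outside a deleted stretch would not check the labels, and which stretch was removed is unknown here.

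Levels below are counts per 1000000 (CPM), that is UMIs of a gene per 1000000 UMIs of a class in a library. Ranges in brackets are exact 95% intervals that cover counting error only. With 1 library per genotype there is no replicate check of any difference and no test, and a difference between the libraries cannot be told apart from one between the genotypes. The log2 ratios are of KO over WT with 10 added to each level. A value counts as higher or lower past 1.5-fold on that scale. Values were counted for genes with at least 100 UMIs over both libraries and a mean level of at least 10 CPM, which 87 of the 90 values of a member in a class met. The exceptions were Nfkb2, Nfkbid and Nfkbie in ILC2.

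Of the 57 lymphoid values, 9 were higher in KO, against 3.04% of all gene values in the same classes. In myeloid classes 6 of 30 were higher, against 5.79%. A lower level in KO past the same fold was found for 1 lymphoid value (4.18% of all gene values) and for 0 myeloid values (3.87%). Of the 15 higher values, 7 belonged to Nfkbia, which encodes IkB alpha. The others were Nfkb1 in T cells and plasma cells, Rel in plasma cells and dendritic cells, Nfkbid in T cells and dendritic cells, and Nfkbiz and Tnfaip3 in dendritic cells. Counting any size of difference, 66 of the 87 ratios were above 0. The share of all genes above 0 was not counted. Medians of all genes ran from -0.10 in plasma cells to 0.07 in monocytes or macrophages.

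**Figure D1:**
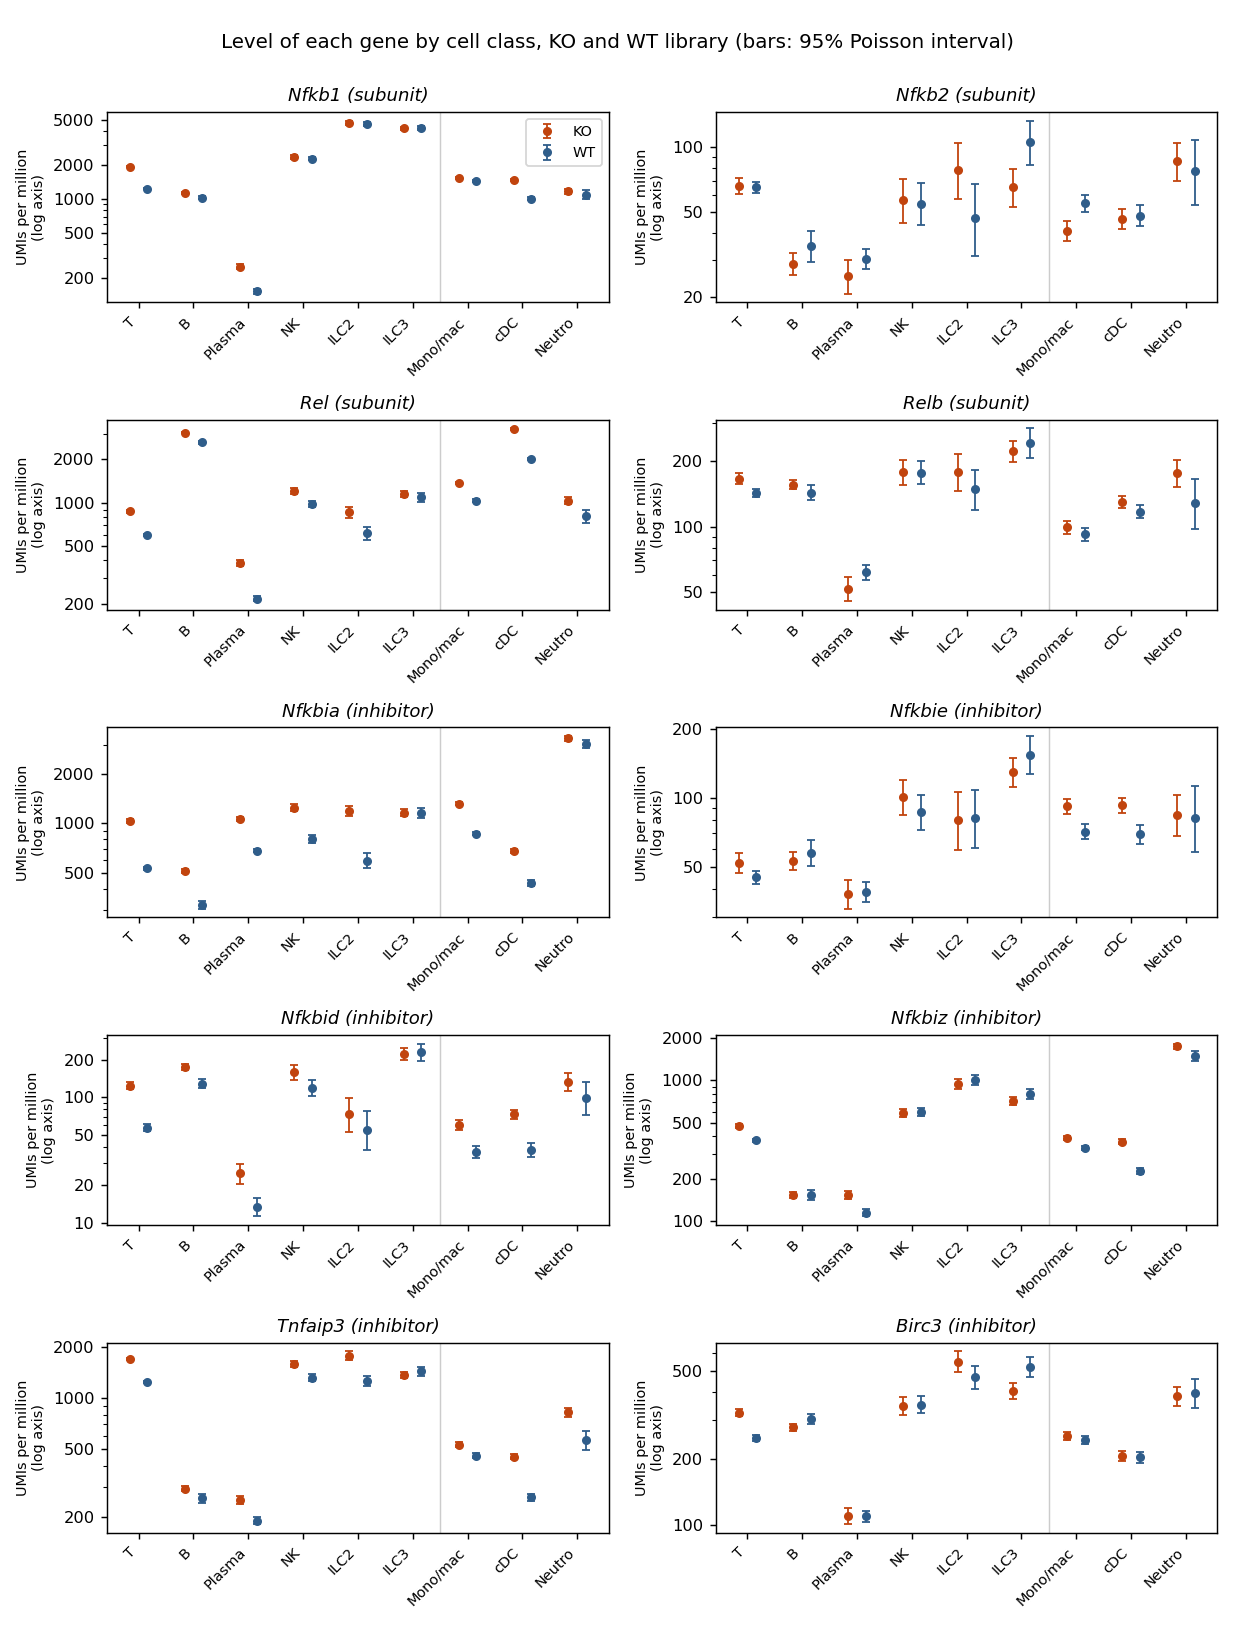
Levels of the 10 genes (CPM, log axis) in 9 cell classes, with KO in orange to the left of WT in blue and 95% Poisson intervals as bars; lymphoid classes are left of the grey line. Nfkbia of KO cells lies above that of WT cells in 7 classes by at least 1.5-fold, while the pairs nearly coincide in ILC3 and neutrophils.

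Nfkb1, which encodes p105 and its product p50, differed between the libraries in some classes and hardly in others. T cells had 1947 Nfkb1 CPM in KO and 1242 in WT, a fold of 1.57 (1.535 to 1.6). Plasma cells, where the gene was lowest in both libraries, had 252 in KO and 152 in WT, a fold of 1.66 (1.54 to 1.79). Dendritic cells had 1482 in KO and 1012 in WT, a fold of 1.46 (1.42 to 1.51) just under the threshold. In NK cells (2360.2 in KO and 2283 in WT), ILC2 (4772 in KO and 4617 in WT), ILC3 (4254 in KO and 4287 in WT) and neutrophils (1174 in KO and 1094 in WT) the interval of the fold included 1. The high level of ILC2 and ILC3, the leading classes in both libraries, was thus within counting error of equal between the libraries. B cells and monocytes or macrophages had folds of 1.11 and 1.06. A same-strand gene model, Gm43430, overlaps Nfkb1, so its count is uncertain to the extent that reads fall in both.

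Rel encodes c-Rel, the subunit known for its part in lymphocyte activation and in cytokine genes of dendritic cells. Its ratio was above 0 in all 9 classes, and the interval of the fold excluded 1 in 8 of them. Dendritic cells had 3237 Rel CPM in KO and 2018 in WT, a fold of 1.60 (1.57 to 1.64). With 3071 in KO and 2626 in WT, B cells led the WT order and stood next to dendritic cells in KO. Plasma cells had the lowest levels, 382 in KO and 217 in WT, with the largest fold of 1.76 (1.65 to 1.87). T cells had 878 in KO and 600.4 in WT (1.46-fold), monocytes or macrophages 1379 in KO and 1038 in WT (1.33-fold), and ILC2 859 in KO and 618 in WT (1.39-fold). ILC3, at 1154 in KO and 1099 in WT, was the class whose interval (0.964 to 1.15) included 1.

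Nfkb2 encodes p100, the precursor of p52, and Relb encodes its usual partner in the non-canonical branch. Neither was higher in KO past the threshold in any class where it was counted. Nfkb2 had 66.1 CPM in KO T cells and 65.2 in WT T cells, and dendritic cells had 46.2 in KO and 48.0 in WT. Its ratio was above 0 in 3 of 8 classes. In ILC3 it was lower, at 65.3 in KO (97 UMIs) and 106 in WT (73 UMIs), a fold of 0.618 (0.452 to 0.85), the only member value below the threshold. It stood at -0.51 on the log2 scale with doublets kept and at -0.39 with classes drawn from marker UMIs, both short of the threshold. Monocytes or macrophages had 40.8 in KO and 55.0 in WT, a fold of 0.74 (0.641 to 0.854). In ILC2, under the count filter, 46 KO and 28 WT UMIs gave levels of 78.4 in KO and 46.8 in WT. Psd overlaps Nfkb2 on the opposite strand.

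Relb levels lay between 51.6 and 222 CPM over the KO classes and between 61.7 and 243 over the WT classes. The fold was 1.16 (1.09 to 1.24) in T cells, 1.37 (1.02 to 1.87) in neutrophils from 200 KO and 58 WT UMIs, and 0.836 (0.719 to 0.969) in plasma cells. In the other 6 classes folds lay between 0.914 and 1.204, and of these only that of dendritic cells had an interval that excluded 1, at 1.11 (1.01 to 1.22).

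Nfkbia, the classical cytoplasmic IkB and the best known early target of the pathway, passed the threshold in 7 of 9 classes, more than any other member. T cells had 1035 CPM in KO (8015 UMIs) and 534 in WT (9545 UMIs), a fold of 1.94 (1.883 to 1.999). ILC2 had 1190.0 in KO and 596 in WT, with a fold whose interval ran from 1.75 to 2.27. B cells, the class with the lowest level in both libraries, had 514 in KO and 321 in WT, a fold of 1.60 (1.51 to 1.70). Folds in the next 4 classes stood close together. Plasma cells had 1061 in KO and 685 in WT (1.55-fold), NK cells 1244 in KO and 802 in WT (1.55-fold), dendritic cells 685 in KO and 437 in WT (1.57-fold), and monocytes or macrophages 1316 in KO and 867 in WT (1.52-fold). ILC3 had 1164 in KO and 1157 in WT, a fold of 1.01 (0.924 to 1.09), and neutrophils, the class with the highest level in both, had 3283 in KO and 3042 in WT, a fold of 1.08 (1.01 to 1.15). In T cells 99.7% of all counted genes had a smaller ratio than Nfkbia, and 99.3% did in B cells, against 49.0% in ILC3.

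The share of cells with Nfkbia gave the same order between the libraries. Thinned to 1000 UMIs per cell, 57.3% of 1626 KO T cells (54.8% to 59.7%) and 38.4% of 3677 WT T cells (36.8% to 40.0%) held an Nfkbia UMI. Without thinning the shares were 89.1% in KO and 75.1% in WT. In ILC3 the thinned shares were 61.9% (55.6% to 67.9%) in KO and 58.7% (49.4% to 67.6%) in WT, with overlapping intervals. No class lacks these genes, so free RNA in droplets was read from Cd3e in B cells, which was at 5.54 CPM in KO and 21.3 in WT, or 2.77% of the T cell level in KO and 6.26% in WT. Cd3e itself differed between the T cells of the libraries, at 199.9 CPM in KO and 339.8 in WT, so these percentages have unlike bases.

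Nfkbie encodes IkB epsilon, a second cytoplasmic inhibitor. It passed the threshold in no class. Monocytes or macrophages had 91.9 CPM in KO and 71.3 in WT, a fold of 1.29 (1.16 to 1.44), and dendritic cells 92.8 in KO and 69.2 in WT, a fold of 1.34 (1.19 to 1.51). In T cells the levels were 51.9 in KO and 44.8 in WT, with a fold of 1.16 (1.03 to 1.31). In the other 5 counted classes the interval included 1.

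Nfkbid and Nfkbiz encode nuclear IkB proteins, which bind dimers on DNA and are known as cofactors of some target genes as well as brakes on others. Nfkbid had the largest T cell fold of the 10 genes, with 124 CPM in KO (957 UMIs) and 57.1 in WT (1021 UMIs), a fold of 2.17 (1.98 to 2.37). Dendritic cells had 73.4 in KO and 38.0 in WT, a fold of 1.93 (1.66 to 2.25). Monocytes or macrophages, with 59.8 in KO and 36.8 in WT, and plasma cells, with 24.7 in KO and 13.3 in WT, had plain folds of 1.62 and 1.85 but stood just under the threshold once 10 was added to each level (log2 ratios of 0.57 in both). B cells had 175 in KO and 129 in WT (1.36-fold). ILC3, the class with the highest level in both libraries, had 223 in KO and 230.0 in WT, a fold of 0.969 (0.799 to 1.18).

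Nfkbiz was higher in dendritic cells, at 367 CPM in KO and 227 in WT, a fold of 1.61 (1.52 to 1.72). T cells had 475 in KO and 376 in WT (1.26-fold), and plasma cells 154 in KO and 115 in WT (1.34-fold). It was near equal in B cells, at 154 in both libraries with a fold of 0.999 (0.911 to 1.10), and in NK cells, at 587 in KO and 598 in WT. In ILC3 it had 715 in KO and 804 in WT, a fold of 0.889 (0.801 to 0.987). Neutrophils had the highest levels, 1745 in KO and 1489.9 in WT.

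Tnfaip3 encodes A20, an enzyme that edits ubiquitin chains on signalling proteins upstream of IkB. Dendritic cells had 450.4 CPM in KO and 261 in WT, a fold of 1.73 (1.63 to 1.83). Neutrophils had 823 in KO and 565 in WT (1.46-fold, 1.27 to 1.68). ILC2 had 1782 in KO and 1261 in WT (1.41-fold, 1.29 to 1.55), and T cells 1705 in KO and 1250.0 in WT (1.36-fold, 1.335 to 1.393). The interval excluded 1 in 8 of 9 classes, all with the higher level in KO, and ILC3 was the ninth, at 1375 in KO and 1438 in WT.

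Birc3 encodes cIAP2, a ubiquitin ligase of TNF receptor complexes that also holds down the kinase of the non-canonical branch. Its median ratio over 9 classes, 0.01 on the log2 scale, was the smallest of the 6 inhibitors. T cells had 324 CPM in KO and 248 in WT, a fold of 1.30 (1.24 to 1.37). ILC3 had 407 in KO and 519 in WT, a fold of 0.783 (0.686 to 0.895), and B cells 277 in KO and 302 in WT, a fold of 0.918 (0.858 to 0.982). Levels in dendritic cells (206 in KO and 203 in WT) and plasma cells (110.5 in KO and 109.7 in WT) nearly coincided.

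The order of the classes was well resolved for some neighbours and not for others. For the 10 genes there were 80 pairs of neighbouring classes in each library, and counting intervals overlapped in 36 pairs of the KO order and 38 of the WT order. Nfkb1 had the widest span between its highest and lowest class, 18.9-fold in KO and 30.4-fold in WT, and Nfkb2 one of the narrowest, 3.44-fold in KO and 3.49-fold in WT. Both ends were the same classes in both libraries for Nfkb1 (ILC2 and plasma cells), and plasma cells were the lowest class of every member except Nfkbia.

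**Figure D2:**
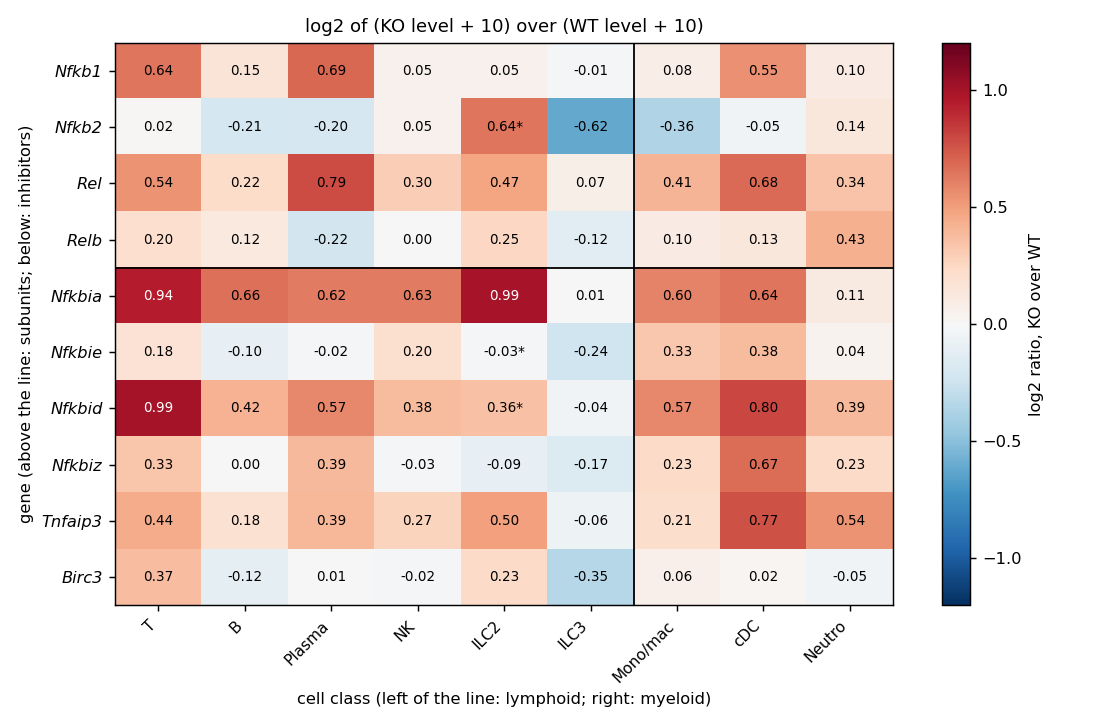
Log2 ratio of KO over WT (with 10 added to each level) for each gene in each cell class, with subunits above and inhibitors below the horizontal line; an asterisk marks a value under the count filter. Nfkbia is past 1.5-fold in every class but ILC3 (0.01) and neutrophils (0.11), and the ILC3 column holds 8 values below 0.

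Subunits and inhibitors were then set against each other. Over the lymphoid classes, 17 of 23 subunit values and 22 of 34 inhibitor values were above 0, with median log2 ratios of 0.07 for subunits and 0.21 for inhibitors, beside -0.01 for all genes. In myeloid classes 10 of 12 subunit and 17 of 18 inhibitor values were above 0, with medians of 0.14 and 0.35, beside 0.03 for all genes. The inhibitor median was thus above the subunit median on both sides of the lineage split, with single values that overlapped widely. For monocytes or macrophages, the class ratios of some members lay above those of both clusters of the class, as given below. With each cell thinned to 1000 UMIs the myeloid order turned round, at 0.37 for subunits and 0.32 for inhibitors. In cells with no UMI of Hspa1a, Hspa1b or Fos both myeloid medians were 0.17. These came from 5 subunit and 9 inhibitor values, with none from dendritic cells. Within B cells, ILC3 and neutrophils the order was the reverse, with inhibitor medians of 0.09, -0.12 and 0.17 and subunit medians of 0.14, -0.07 and 0.24. Subunit ratios ran from -0.62 to 0.79 in lymphoid classes and inhibitor ratios from -0.35 to 0.99.

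Class by class the pattern was mixed. In T cells 3 of 10 members were higher in KO, against 2.67% of genes, and 0 were lower, against 4.25%, with a member median of 0.41 beside -0.001 for all genes. In dendritic cells 5 of 10 were higher, against 4.32%, and 0 lower, against 3.02%, with a median of 0.59 beside -0.01. Plasma cells had 3 of 10 higher, against 3.09%, and 0 lower, against 5.39%, with a median of 0.39 beside -0.10. At a clustering resolution of 2 the plasma cells of the libraries separated, into a cluster led by Iglv1 and Sgpp2 (150 KO and 1108 WT cells), one led by Ighg2b and Iglc1 (461 KO and 109 WT cells) and a dividing one (6 KO and 99 WT cells). Ratios within these were not computed, so a difference in kind of plasma cell cannot be told apart from one within a kind. T cells, dendritic cells and plasma cells held 11 of the 15 higher values.

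In the remaining classes at most 1 member was past the threshold. In B cells 1 of 10 was higher, against 1.32%, and 0 lower, against 2.32% (median 0.14). NK cells had 1 of 10 higher, against 3.09%, and 0 lower, against 4.1% (median 0.12). ILC2 had 1 of 7 higher, against 7.8%, and 0 lower, against 5.35% (median 0.25). Each of those values was Nfkbia. In monocytes or macrophages 1 of 10 was higher, against 4.68%, and 0 lower, against 2.94% (median 0.22), and in neutrophils 0 of 10 were higher or lower, against 13.9% and 9.46% (median 0.18). ILC3 had 0 of 10 higher, against 4.43%, and 1 lower, against 5.17%, with 2 ratios above 0 and a median of -0.09 beside 0.02 for all genes. Heat shock genes differed from the members in ILC3: 4 of the 12 counted were higher in KO and their median was 0.52.

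The sum of the 6 inhibitors over the sum of the 4 subunits, set as KO over WT, gave 1 figure per class. It was 1.23 (1.14 to 1.32) in ILC2, 1.14 (1.11 to 1.17) in monocytes or macrophages, 1.13 (1.07 to 1.19) in NK cells and 1.05 (1.01 to 1.09) in B cells, so the inhibitor sum was larger relative to subunits in KO there. In T cells (0.993, 0.971 to 1.01), dendritic cells (0.991, 0.960 to 1.02) and neutrophils (0.973, 0.891 to 1.06) the interval included 1. In plasma cells (0.925, 0.877 to 0.975) and ILC3 (0.939, 0.886 to 0.995) the balance lay on the other side. The classes on either side of 1 did not follow the lymphoid and myeloid split. A sum of UMIs weights each gene by its own count.

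**Figure D3:**
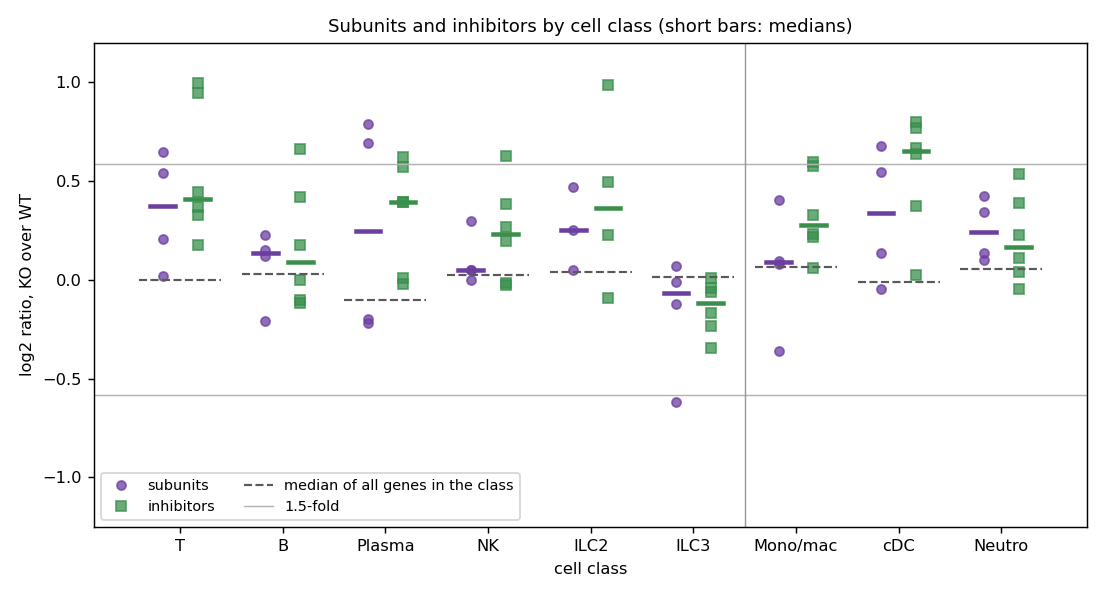
Log2 ratios of KO over WT for the subunits (circles) and inhibitors (squares) that passed the count filter in each class, with short bars at their medians, the dashed line at the median of all genes and grey lines at 1.5-fold. Inhibitor medians reach 0.65 in dendritic cells and 0.41 in T cells, and both medians lie below 0 in ILC3.

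The T cell difference was looked at within 11 sub-clusters, since the libraries divided differently among them. The sub-cluster led by Ly6c2 and Klrk1 held 35 KO and 615 WT cells. The median ratio of the counted members was above 0 in all 11, from 0.12 to 0.78, while the medians of all genes lay between -0.02 and 0.12. Of 94 counted values, 79 were above 0, 27 were higher in KO (5.95% of all gene values) and 0 were lower (7.64%).

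Nfkbia was above 0 in 11 of 11 T cell sub-clusters and past 1.5-fold in 9. Its smallest log2 ratio, 0.41, was in the sub-cluster led by the B cell gene Ebf1, and its largest, 1.41, in that led by Penk and Il17f. Nfkbid was above 0 in all 8 sub-clusters where it was counted and past 1.5-fold in 6. Nfkb1 was above 0 in 10 of 11, with 1.21 in the dividing sub-cluster led by Pclaf and Birc5 and -0.47 in the Cd8b1 sub-cluster led by Ly6c2 and Klrk1. Nfkb2 was above 0 in 3 of 7 and Relb in 5 of 10. The sub-cluster like regulatory T cells, marked by Foxp3 and Il10, had a member median of 0.47, beside 0.004 for all genes. The larger Th17-like sub-cluster, led by Ablim3 and Il23r, had 0.22, beside 0.002 for all genes.

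Dendritic cells divided into a cDC2 cluster (536 KO and 507 WT cells) and an Xcr1 and Clec9a cDC1 cluster (121 KO and 154 WT cells). In the cDC2 cluster all 10 ratios were above 0, the median was 0.66 beside -0.03 for all genes, and 6 of 10 were higher in KO, against 5.49% of genes, and 0 lower, against 4.62%. In the cDC1 cluster 7 of 10 were above 0, the median was 0.16 beside 0.02 for all genes, 1 of 10 was higher, against 4.12%, and 0 were lower, against 3.17%. Tnfaip3 had 533 CPM in KO and 285 in WT cDC2, a fold of 1.87 (1.75 to 1.995), and 237 in KO and 208 in WT cDC1, a fold of 1.14 (1.003 to 1.3). Nfkbid had 85.8 in KO and 38.4 in WT cDC2, a fold of 2.24 (1.87 to 2.68), and 41.5 in KO and 37.1 in WT cDC1, a fold of 1.12 (0.816 to 1.53). For these genes the intervals of the 2 clusters did not overlap. The 1 gene past the threshold in cDC1 was Nfkbie, at 101 in KO and 62.9 in WT. Birc3 had folds of 1.01 in cDC2 and 1.03 in cDC1.

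The dendritic cells of the libraries lay largely in different sub-clusters. That led by Ccl17 and Rbpms2 held 284 KO and 13 WT cells, while those led by Rnf217 and Ly6a (11 KO and 169 WT cells) and by Adgrl3 and Bbs9 (19 KO and 125 WT cells) were mostly WT. Only 4 sub-clusters held at least 20 cells of each library. There the member medians were 0.14 in that led by Cd7, 0.03 in that led by P3h2 and Xcr1, 0.04 in that led by the interferon-induced genes Cmpk2 and Ifit2, and 0.42 in that led by Gm36723 and Iqch. These lie below the 0.59 of the class, and a difference in the kind of dendritic cell present cannot be told apart from a difference within 1 kind for the cells outside those 4.

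A sub-cluster of dendritic cells led by Fscn1 and Cacnb3, genes of mature migratory cells, held 41 KO and 9 WT cells. In it Relb was at 357 CPM in KO and 284 in WT, which is 3.13 times the level of the other dendritic cells in KO and 2.47 times in WT. Without it 2 of the 10 dendritic cell ratios moved by more than their counting interval: Relb stood at -0.01 on the log2 scale, against 0.13 with it, and Nfkbia at 0.55, against 0.64. Nfkbia was then under the threshold, and 5 myeloid values were higher in KO in place of 6.

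Monocytes or macrophages were split between a monocyte cluster led by Chil3 and F13a1 (869 KO and 1428 WT cells) and a macrophage cluster led by C1qa and Mrc1 (228 KO and 98 WT cells). Nfkbia had 1253 CPM in KO and 833 in WT monocytes, a fold of 1.503 (1.46 to 1.55), and 1676 in KO and 1633 in WT macrophages, a fold of 1.03 (0.936 to 1.13). With both clusters weighted alike its ratio for the class was 0.25 on the log2 scale, against 0.60 as counted, and the class was no longer past the threshold. Rel had 1383 in KO and 1031 in WT monocytes (1.34-fold) and 1355 in KO and 1206 in WT macrophages (1.12-fold). Nfkbiz had a fold of 0.892 (0.839 to 0.947) in monocytes and 1.09 in macrophages, and Tnfaip3 1.03 in monocytes and 1.02 in macrophages. The class ratios of Nfkbiz and Tnfaip3, 0.23 and 0.21 on the log2 scale, lay above those of both clusters. Member medians were 0.06 in monocytes and 0.17 in macrophages, beside 0.06 and 0.05 for all genes, with 0 of 10 and 0 of 9 values past the threshold in KO, where 4.55% and 7.62% of genes were higher. In neither cluster was a member lower past it, against 3.5% of genes in monocytes and 2.82% in macrophages. The class member median of 0.22 lay above both cluster medians, and the clusters made up different parts of the class in each library.

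The cells of this class, too, lay largely in different sub-clusters in the libraries. Those led by Flrt3 and Tmem267 (347 KO and 17 WT cells) and by Kcnn4 and Hp (311 KO and 5 WT cells) were mostly KO, and those led by Plcb1 and Vcan (5 KO and 550 WT cells) and by Ccr7 and Ly6a (22 KO and 623 WT cells) mostly WT. In the 5 sub-clusters with values the member medians were -0.12 in that led by Ccr7 and Ly6a, 0.27 in that led by Ccl12 and Pf4, 0.63 in that led by Dcstamp and Lpl, 0.04 in that led by Mx1 and Usp18, and 0.01 in that led by Ehf and Apol7c. For most cells of the class a difference in kind of cell cannot be told apart from a difference within 1 kind.

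**Figure D4:**
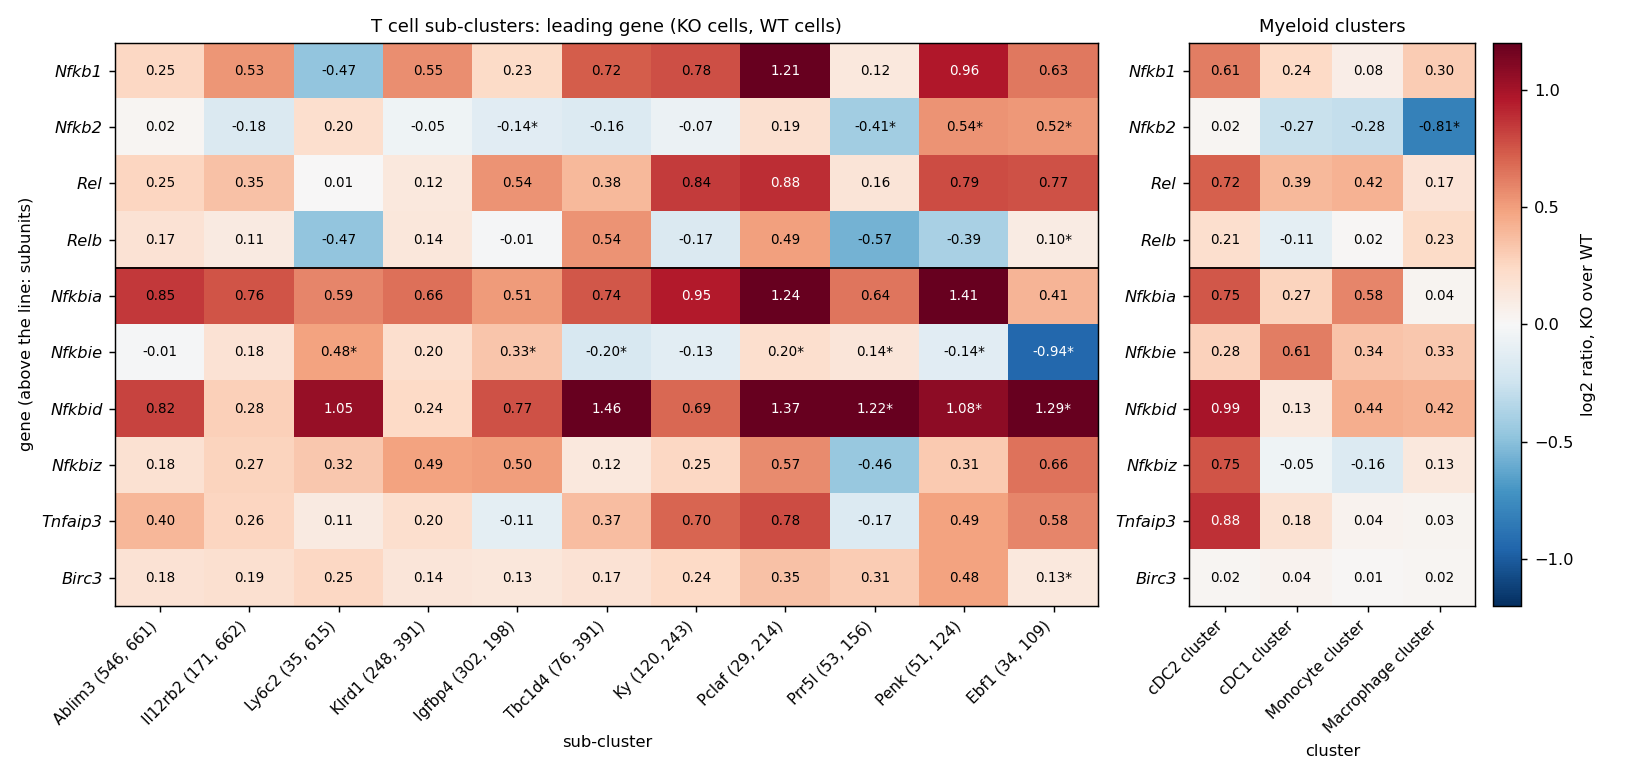
Log2 ratios of KO over WT for each gene in 11 T cell sub-clusters (left, named by a leading gene with the number of KO and WT cells) and in 4 myeloid clusters (right); an asterisk marks a value under the count filter and colours stop at 1.2 either way. Nfkbia is above 0 in every T cell column, and the cDC2 column is above that of cDC1 for every gene but Nfkbie and Birc3.

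Cells with UMIs of Xist but of no gene on the Y chromosome, and cells with the reverse, were found in either library, and gave 2 separate sets of cells for the same comparison. Enough of each were present in 6 classes, where 55 member values were counted in both sets. Of these, 42 were above 0 in both sets, 5 below 0 in both and 8 had opposite signs. All 14 of the higher values that could be read in both were above 0 in both, and 7 were past 1.5-fold in both. Those values were called from class sums that include the cells of both sets, so this agreement is in part built in. Nfkbia in T cells had a log2 ratio of 0.92 in the Xist set and 1.05 in the Y-linked set. Both sets come from the same 2 libraries, so they are not replicates of the genotype.

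**Figure D5:**
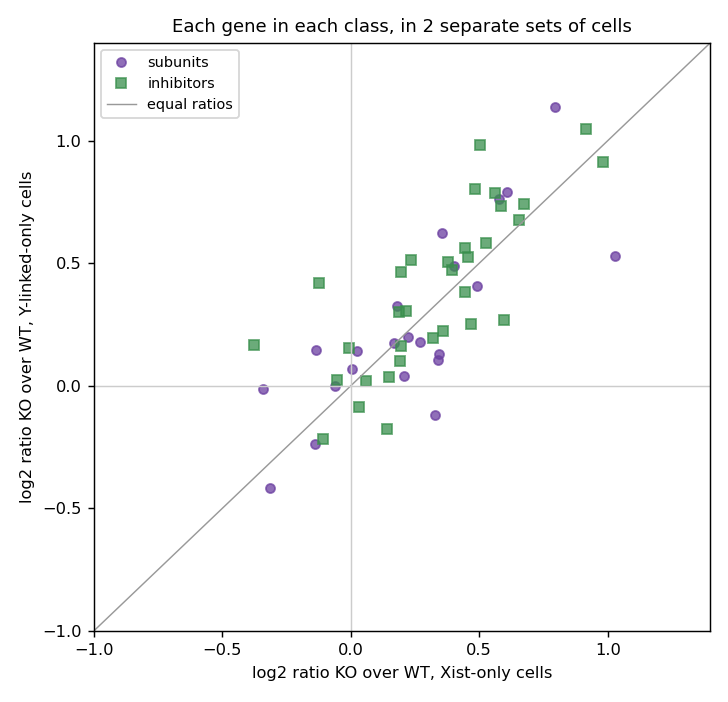
Log2 ratio of KO over WT of each gene in each of 6 classes, in the Xist set (horizontal) against the Y-linked set (vertical); circles are subunits, squares inhibitors and the line marks equal ratios. Of 55 points, 42 lie above 0 on both axes.

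The rest of the pathway was described from lists of other NF-kB genes. Rela, which encodes the p65 subunit, Nfkbib, Bcl3 and Nkrf held 0 values past the threshold in any class. Of 30 adaptors and kinases, 27 were counted in T cells with 0 higher and 0 lower and a median of -0.003, and 24 in dendritic cells with 1 higher and 1 lower and a median of 0.01. Of 13 further brakes, 11 were counted in T cells with 0 higher and 0 lower and a median of -0.03. Receptors of the pathway were past the threshold upward in 3 of 8 counted genes in dendritic cells and in 0 of 5 in T cells. Of all genes, 4.32% were higher and 3.02% lower in dendritic cells, and 2.67% and 4.25% in T cells. Receptors were also higher in 1 of 9 in monocytes or macrophages and 1 of 4 in neutrophils, and lower in 1 of 5 in B cells and 1 of 4 in plasma cells. Adaptors and kinases had 4 higher and 1 lower of 9 in ILC2 (7.8% and 5.35%), and 0 higher and 3 lower of 19 in NK cells (3.09% and 4.1%).

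Of 35 known target genes that are not among the members, 23 were counted in T cells, with 7 higher and 2 lower, against 2.67% and 4.25% of all genes, and a median of 0.21. Dendritic cells had 9 higher and 0 lower of 28, against 4.32% and 3.02%, with a median of 0.33. In ILC3 1 was higher and 10 were lower of 19, against 4.43% and 5.17% (median -0.67). In plasma cells 5 were higher and 1 lower of 20, against 3.09% and 5.39% (median 0.29), and in neutrophils 2 were higher and 8 lower of 26 (median -0.10), where 13.9% and 9.46% of all genes were higher and lower. Monocytes or macrophages had 3 higher and 4 lower of 30, against 4.68% and 2.94% of genes. In B cells 1 was higher and 3 were lower of 22, against 1.32% and 2.32%. NK cells had 2 higher and 1 lower of 20, against 3.09% and 4.1%, and ILC2 1 and 0 of 10, against 7.8% and 5.35%. Target medians were 0.07 in B cells, 0.18 in NK cells and 0.20 in ILC2. The median of the targets had the sign of the member median in 8 of 9 classes and the opposite sign in neutrophils. That of monocytes or macrophages, 0.003, lay below the median of all genes in the class (0.07), so sharing a sign there is not a shift above all genes.

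In T cells the largest ratios of the other pathway genes were those of Ccl20, a chemokine for CCR6-positive cells, at 47.0 CPM in KO and 18.1 in WT (2.60-fold), Cd83, a surface activation marker, at 73.2 in KO and 34.7 in WT (2.11-fold), and Cxcl2, a neutrophil chemokine, at 118 in KO and 65.8 in WT (1.79-fold). The smallest were those of Ccl5, a chemokine of cytotoxic cells, at 467 in KO and 1345 in WT (0.347-fold), Ltb, which encodes lymphotoxin beta, at 49.0 in KO and 80.3 in WT (0.61-fold), and Rbck1, which encodes HOIL-1 of the linear ubiquitin ligase, at 18.2 in KO and 29.6 in WT (0.616-fold). Ccl5 was also a leading gene of the Cd8b1 sub-cluster that held 35 KO and 615 WT cells.

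In monocytes or macrophages the largest were those of Ccl22, a chemokine for CCR4-positive cells, at 37.5 in KO and 8.29 in WT (4.53-fold), Tnfsf9, which encodes the ligand of 4-1BB, at 52.8 in KO and 26.0 in WT (2.03-fold), and Tnf, at 302 in KO and 173 in WT (1.75-fold). At the other end were Nos2, the inducible nitric oxide synthase, at 4.10 in KO and 20.5 in WT (0.20-fold), Ptgs2, which encodes cyclooxygenase-2, at 560.3 in KO and 969 in WT (0.579-fold), and Il1b, at 1446 in KO and 2394 in WT (0.604-fold). Known targets stood at both ends within the same class.

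Immediate early and heat shock genes, which also respond to tissue handling, were higher in KO in several of the same classes. In T cells 8 of 23 counted immediate early genes were higher in KO and 0 lower (median 0.43). There 5 of 12 heat shock genes were higher and 0 lower (median 0.44), against 2.67% and 4.25% of all genes. Fos had 532 CPM in KO and 325 in WT T cells, Hspa1a 272 in KO and 61.8 in WT, and Hspa1b 659.8 in KO and 149 in WT. In dendritic cells 3 of 23 immediate early genes were higher and 2 lower (median 0.11), against 4.32% and 3.02% of all genes. Of 12 heat shock genes there, 2 were higher and 0 lower, with a median of -0.13. Fos had 412 in KO and 348 in WT there. Neutrophils had 345 in KO and 460.5 in WT, with 7 of 21 immediate early genes lower in KO, against 9.46% of all genes. Heat shock genes were higher in 4 of 12 in B cells (median 0.29), 5 of 12 in NK cells (0.51) and 5 of 10 in ILC2 (0.65). No heat shock gene was lower there, and 1.32%, 3.09% and 7.8% of all genes were higher. Immediate early genes in these classes were higher in 1 of 23, 1 of 20 and 4 of 17, and lower in 1, 1 and 0. Plasma cells had 4 of 22 immediate early genes higher and 1 lower, against 3.09% and 5.39% of all genes. Monocytes or macrophages had 0 of 23 higher and 2 lower, against 4.68% and 2.94%. ILC3 had the highest Hspa1b levels, 5195 in KO and 2919 in WT, with a member median of -0.09. In cells with no UMI of Fos, Hspa1a or Hspa1b (207 KO and 1216 WT T cells), all 10 member ratios of T cells were above 0, with 0.90 for Nfkbia, 1.16 for Nfkbid and 0.60 for Nfkb1. In the B cells so chosen (604 KO and 369 WT) Nfkbia had a ratio of 0.63. It had 0.58 in monocytes or macrophages so chosen (107 KO and 324 WT). Member medians were 0.05 in both, taken over all 10 members. In monocytes or macrophages these included values under the count filter, such as Nfkb2 at -1.23. Nfkbia in neutrophils so chosen (228 KO and 141 WT) had a ratio of 0.55, against 0.11 over all neutrophils. Too few such plasma cells, NK cells, ILC and dendritic cells were left in KO to give a value. Cells with few UMIs are more likely to hold none of these 3 genes, so the choice also selects on depth, which was not matched. It left 207 of 1665 KO and 1216 of 3764 WT T cells. The part of handling or stress in the ratios was not tested in any class.

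Genes whose levels followed the members over the 18 points (9 classes in each library) were ranked among 1417 genes by Pearson's r, as a description. For the mean of the subunits the closest were Kdm6b (0.968), Cmip (0.947), Mapkapk3 (0.943), Pcgf5 (0.934) and Erbin (0.921). For the mean of the inhibitors they were Junb (0.936), Nabp1 (0.907), Neurl3 (0.905), Prdx6 (0.894) and Ddx3x (0.890). The points share libraries and depth.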

How the data were processed

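The deposited counts are raw UMI counts per gene and barcode, made by the authors with Cell Ranger 7.0.0 on GRCm38, per the file headers and the submitters' processing notes; the labels do not say whether introns were counted. Cells with at least 200 genes, 500 UMIs and at most 20% mitochondrial UMIs were kept, and called doublets were left out (416 in KO and 637 in WT). Clustering with scanpy 1.11.5 and leidenalg 0.10.2 used 2000 variable genes without the members or other pathway genes, 30 components and resolution 1. Clusters were named from marker genes. The rules that a T cell cluster needs 3 of Cd3e, Cd3d, Cd3g and Trac in 25% of cells, and that an epithelial name needs Epcam, were written after the clusters were seen. One cluster with Paneth cell and B cell genes (262 KO cells and 1 WT cell) stayed unnamed. UMIs were summed per class and library. Genes named beside the members were the 3 highest and 3 lowest of the other pathway genes in T cells and in monocytes or macrophages, and the 5 most alike. Folds have exact binomial intervals, shares exact Clopper-Pearson intervals and ratios of sums exact conditional intervals; all cover counting error only. The calculation of ratios and intervals was tested on simulated data. Members, gene lists and classes were chosen with earlier results of these data known. Promoter windows and gene positions are from RefSeq and GENCODE annotations of GRCm38.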

Additional observations from a re-analysis of the deposited data

Results flagged for a closer look

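Nfkb1 in NK cells pointed in opposite directions in the 2 separate sets of cells. In Xist-only cells (58 KO and 68 WT) it had 2343 CPM in KO and 1867 in WT, a fold of 1.25 (1.124 to 1.401). In Y-linked-only cells (81 KO and 120 WT) it had 2258 in KO and 2455 in WT, a fold of 0.920 (0.847 to 0.998). The difference between the sets was not tested, and each is a part of the same 2 libraries.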

How the results depend on the processing

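In 20 alternatives no median or member ratio past 1.5-fold changed sign. Of the 8 medians and counts, these moved. The count of lower lymphoid values was 0 with a pseudocount of 50, with doublets kept, with classes from marker UMIs and at a fold of 2. It was also 0 in Xist-only, Y-linked-only and Hspa1a-, Hspa1b- and Fos-free cells, and 3 with cells thinned to 1000 UMIs. Nfkb2 in ILC3, the 1 lower value as reported, had no ratio in Xist-only or in Hspa1a-, Hspa1b- and Fos-free cells. In Y-linked-only cells its ratio was -0.67, but it was not counted there. The count of higher myeloid values was 3 of 30 with clusters weighted alike and 3 of 20 in Xist-only cells. It was 1 of 14 in Hspa1a-, Hspa1b- and Fos-free cells and 0 of 30 at a fold of 2. The count of higher lymphoid values was 4 of 20 and 0 of 57 under those 2 settings. The myeloid subunit median was 0.37 with thinning and 0.31 in Xist-only cells, and the lymphoid one 0.21 in Xist-only cells. The myeloid inhibitor median was 0.17 in Hspa1a-, Hspa1b- and Fos-free cells, where fewer classes gave values. Values within a class moved there too, such as Nfkbid in monocytes or macrophages at 0.16 and Nfkbia in neutrophils at 0.55. The cause of these moves was not tested. Of the higher values, Nfkbia in NK cells was 0.23 at clustering resolution 2, Nfkb1 in plasma cells 0.33 with thinning, and Nfkbia in monocytes or macrophages was past 1.5-fold in 10 of 19 alternatives. Nfkb2 in ILC3 ran from -1.37 to -0.39. The 4 alternatives on the unnamed cluster, on sub-clusters left out (2) and on Hspa1a-, Hspa1b- and Fos-free cells were chosen after seeing the data. Counting depth limits Nfkb2, Nfkbid and Nfkbie most. No paired analysis was possible because each genotype has 1 library and no test was made.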
